A study of Mus musculus with 16 samples.

Results

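Alternative 5' splice site events are exons whose downstream end can be cut at either of a pair of 5' splice sites, an inner site that gives a short exon and an outer site that adds an extension to it. All events of this type were taken from the 3 deposited splicing tables, and those whose junction reads averaged 10 or more per library, in each group of a table, are described. The tables held 2750 distinct events of this type among 57891 events of 5 types, and 1923 of them, in 1434 genes, passed the read minimum in at least 1 table. The RNA came from the left ventricle of 16 Bl6J mice of both sexes, 4 per group. The mice carried RBM20 P635L on both alleles or were wild type (WT). At 4 weeks of age every mouse received 1e12 viral genomes of AAV9 into the tail vein, and hearts were taken 12 weeks later, at 16 weeks. The virus carried either Tnpo3 cDNA (the groups WT Tnpo3 and P635L Tnpo3) or a control construct, pCAG-iCre-T2A-eGFP (WT Ctr and P635L Ctr), so that no group was free of virus. Each table sets WT Ctr against 1 of the other groups, and the same 4 WT Ctr libraries enter all 3 tables.

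At the start of splicing the U1 small nuclear ribonucleoprotein pairs with the last bases of the exon and the first bases of the intron, and the site it settles on fixes where the exon ends. Nearly all such sites begin the intron with GT, and a minority with GC. SR proteins and hnRNPs bound nearby shift the choice between competing sites. RBM20 is an RNA-binding protein of heart muscle that mainly represses exons of sarcomere and calcium-handling genes, and the P635L change lies in its RS domain, which the import receptor transportin-3, encoded by Tnpo3, recognises.

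The sequences below belong to events described later and were chosen because the extension is short enough to be read whole or because the event carries a main result. Each line gives the last 12 bases of the short exon, where these could be read, followed by the extension or its first 18 bases, 5' to 3'. Capitals mark the first pair of bases after the inner site, which are intron when the inner site is used and exon when the outer site is used. They were read from GENCODE M21 transcripts, which are on GRCm38. Lines for untranslated or longer extensions stop at 30 bases.
Myh7: tgctaccctcagGTaggagtgggagctgga
Kdm5c: aggagggctcagGTaagagag
Birc6: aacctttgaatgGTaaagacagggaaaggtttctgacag
Cacna1g: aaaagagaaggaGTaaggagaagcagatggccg
Zfp13: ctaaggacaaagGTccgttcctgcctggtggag
Srebf1: acagccgtgcagGCaggtcccctgcag
Slc29a1: tggatctcataaGTaaag
Psmd10: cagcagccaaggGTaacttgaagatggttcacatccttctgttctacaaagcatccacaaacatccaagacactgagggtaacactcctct
Kat2a: tcacttccccaaGTaaggctcagtctggcc
Tars2: cagctcttcaagGTgatccggctgtgtgtg
Rbm10: ctctccaccatcGTg
Abhd14a: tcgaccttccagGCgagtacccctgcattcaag
Atg2a: gctggccagaagGTacag
Srebf1 and Abhd14a have GC at the inner site, and the others have GT.

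The extension had a median length of 73 bases, with quartiles of 22 and 215.5 and a range of 1 to 5324. In 613 events it was 30 bases or shorter. The commonest of the short lengths was 4 bases, in 75 events, followed by 9 bases, in 50. In 737 events (38.3%) the length was a multiple of 3, which leaves the reading frame unchanged where the extension is coding sequence without a stop codon. The exon structure of 1794 events (93.3%) was found in GENCODE M21. There the extension lay in coding sequence in 904, partly in coding sequence in 194, in the 5' UTR in 135, in the 3' UTR in 59 and in transcripts without a coding sequence in 502. The 9 bases at the inner site, 3 of exon and 6 of intron, were read for 1711 events, and 1645 began the intron with GT and 62 with GC. Outer sites could be read for 663 events, with 648 GT and 13 GC. Against the consensus CAGGTAAGT, both sites matched a median of 6 of 9 bases. Where both were read, the outer site matched more bases in 239 events, the inner site in 241, and they tied in 183.

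**Figure D1:**
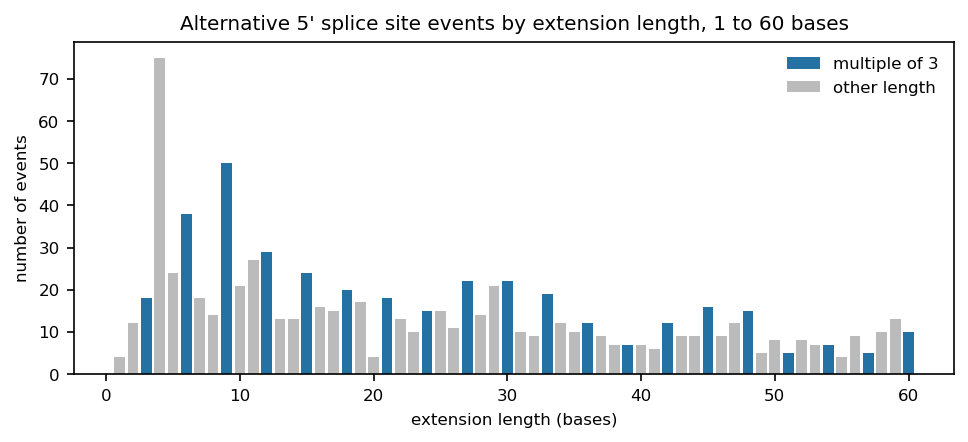
The number of events passing the read minimum in at least 1 table (vertical axis) at each extension length from 1 to 60 bases (horizontal axis), with lengths that are a multiple of 3 in blue. The bar at 4 bases holds 75 events and the bar at 9 bases holds 50.

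The inclusion level is the share of the outer-site form in an event's junction reads, corrected by rMATS for form length, and runs from 0 to 1. In the table of P635L Ctr against WT Ctr, 690 of 1725 events had a mean WT Ctr inclusion level of at least 0.9, 454 had at most 0.1, and 581 lay between. Among these last, the median SD over the 4 WT Ctr libraries was 0.181 where the lower group mean was from 10 to 20 reads, and 0.0432 where it was 100 reads or more. WT Ctr was read less deeply than the mutant group, with a median over events of 56.2 junction reads per library against 108 in P635L Ctr. Over all 16 libraries the gene counts summed to between 28493249 and 85922669. The 5 cardiomyocyte markers were present in every group. Summed levels of 5 fibroblast markers ranged from 531 to 880 CPM in WT Ctr, from 1100 to 1650 in P635L Ctr, from 743 to 1040 in P635L Tnpo3 and from 595 to 812 in WT Tnpo3. Summed levels of 5 lymphocyte markers ranged from 1.15 to 42.6 CPM in WT Ctr (median 3.91), and no library of another group exceeded 8.36. Those of 5 macrophage markers ranged from 132 to 427 CPM in WT Ctr (median 165), with 330 the highest elsewhere, in P635L Tnpo3. WT Ctr is the reference in all 3 tables. The part of cell make-up in the splicing differences was not tested. In bulk tissue, fewer cells of a type and less RNA per cell cannot be told apart.

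The first comparison asked which sites were used differently in mutant hearts given the control virus. An event was called where the FDR in the authors' deposited table was under 0.05 and mean inclusion differed by at least 0.1. By this rule 55 of 1725 events (3.19%) were called in P635L Ctr against WT Ctr, 21 with higher (1.22%) and 34 with lower use of the outer site (1.97%). Over all 5 event types 2.52% were called. The 4 libraries of one group lay wholly above those of the other in 22 of the 55 events (1.28% of those tested), 9 higher and 13 lower. Among all events passing the read minimum, called or not, 61 (3.54%) had no overlap. Of the 34 lower events, 22 started from a WT Ctr inclusion level of at least 0.9, and of the 21 higher events, 5 started from at most 0.1. The median absolute difference was 0.163 among called events and 0.018 among all 1725. Events just inside and outside the read minimum were Klhl4, with 10 reads in its lower group and a difference of -0.373, and Zfp672, with 9.75 reads and -0.212.

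A second test, which takes the spread between libraries from the junction counts themselves, gave no call in this comparison. With edgeR's quasi-likelihood test and Benjamini-Hochberg adjustment over all event types, 0 events of this type had an adjusted p under 0.05 with a difference of at least 0.1. By limma the count was also 0. At an unadjusted p under 0.05, edgeR had 105 of 1725 events (6.09%) and limma 247. Of the 55 called events, 20 had an unadjusted edgeR p under 0.05. The smallest edgeR adjusted p among them was 0.255, for Myh7. Over all 5 event types edgeR called 53 of 34690 events (0.153%). The verbs used below for single events therefore refer to calls by the deposited FDR and not to this second test.

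**Figure D2:**
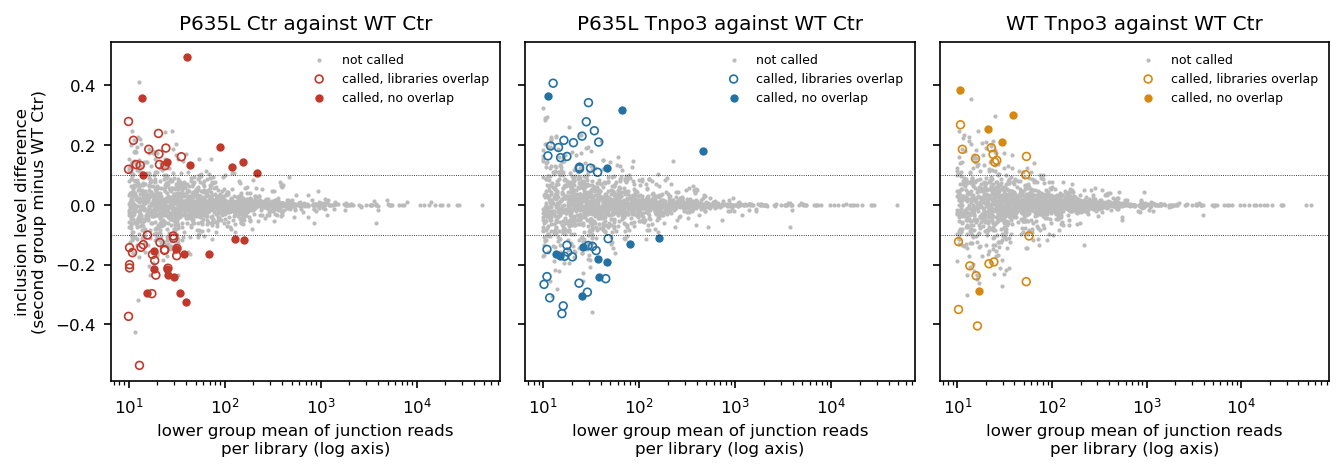
The inclusion level difference of each event (second group minus WT Ctr, vertical axis) against the lower of the group means of junction reads per library (horizontal log axis), for the 3 comparisons, with dotted lines at 0.1 and -0.1. Grey points were not called, open circles were called with overlapping libraries and filled circles were called without overlap. Differences narrow as reads rise.

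Myh7, which encodes the slow beta-myosin heavy chain, had the largest rise. The event adds 178 bases to a 5' UTR exon (chromosome 14, 55231790 to 55231967, minus strand, GRCm39 as in the deposited coordinates). Inclusion levels were 0.2, 0.276, 0.524 and 0.543 in WT Ctr and 1.0, 0.75, 1.0 and 0.769 in P635L Ctr. Junction reads averaged 57 per library in WT Ctr and 40.2 in P635L Ctr. The WT Ctr library at 0.2 had only 1 inclusion and 2 skipping reads, and the one at 0.524 had 11 and 5. All mutant libraries lay above all wild-type ones, a difference of 0.494 (mean 0.88 ± 0.139 against 0.386 ± 0.174, SD, n = 4 each). In the authors' deposited table its FDR was 7.03e-06, while the edgeR adjusted p was 0.255. In P635L Tnpo3 the levels were 0.698, 0.455, 0.95 and 0.81, which overlapped WT Ctr, with a difference of 0.342. WT Tnpo3 had a mean of 0.508 ± 0.164 (SD, n = 4) and was not called. The Myh7 gene itself fell by 2.62 on the log2 scale in P635L Ctr (SE 0.28, edgeR adjusted p = 6.55e-06) and the log2 change in P635L Tnpo3 was -1.24 (adjusted p = 0.0153). Myh7 has a near-identical neighbour, Myh6, and how reads shared between them were assigned is not given in the sources used here.

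Mhrt is a long non-coding RNA transcribed antisense to Myh7, and its 27-base extension was used less in mutant hearts. Inclusion levels were 0.817, 0.856, 0.867 and 0.863 in WT Ctr and 0.746, 0.732, 0.667 and 0.605 in P635L Ctr. The groups did not overlap and differed by -0.163. P635L Tnpo3 libraries were at 0.848, 0.811, 0.877 and 0.919, within 0.013 of WT Ctr on average and above every P635L Ctr library. The libraries were stranded, but whether the splicing counts used strand is not given in the sources used here.

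Birc6, a ubiquitin-conjugating inhibitor of apoptosis, gained a 27-base coding extension. Its levels were 0.167, 0.408, 0.479 and 0.315 in WT Ctr and 0.644, 0.763, 0.801 and 0.595 in P635L Ctr, at 13.8 and 15.2 reads per library. Every P635L Ctr library was above every WT Ctr one, and WT Tnpo3 had a mean of 0.695 ± 0.26 (SD, n = 4). Kdm5c, a histone H3 lysine demethylase on the X chromosome, rose from 0.246 ± 0.067 to 0.439 ± 0.113 (SD, n = 4 each) in its 9-base extension. Uqcrh, a subunit of respiratory complex III, rose from 0.555 ± 0.0507 to 0.697 ± 0.0356 (SD, n = 4 each) at 156 and 425 reads per library. This Uqcrh event stood only in the table with P635L Ctr. Ogg1, a glycosylase that removes oxidised guanine, rose from 0.854 to 0.987, and Tyms, thymidylate synthase, from 0.0828 to 0.225. Sugp2, which carries a domain found in splicing proteins, rose from 0.221 to 0.348.

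Tmem208, a protein of the endoplasmic reticulum, was among the most deeply read of the called events. Its 26-base extension, which M21 places in transcripts marked for nonsense-mediated decay, had levels of 0.089, 0.034, 0.08 and 0.128 in WT Ctr and 0.214, 0.199, 0.2 and 0.149 in P635L Ctr. The difference was 0.108 without overlap, and 0.069 in P635L Tnpo3 and 0.051 in WT Tnpo3. Cacna1g, a T-type calcium channel, gained its 21-base coding extension, from 0, 0, 0.095 and 0.103 to 0.132, 0.141, 0.195 and 0.134. Junction reads for Cacna1g averaged 14 per library in WT Ctr and 148 in P635L Ctr, and the gene rose by 2.28 on the log2 scale (edgeR adjusted p = 1.52e-07). Low WT Ctr values of this event therefore rest on few reads.

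Falls without overlap included 3 genes of nuclear RNA and chromatin biology. Ythdc1, a nuclear reader of N6-methyladenosine, used its 1358-base extension at 0.333, 0.5, 0.355 and 0.5 in WT Ctr and at 0.167, 0.188, 0.227 and 0.141 in P635L Ctr. P635L Tnpo3 was at 0.4, 0.229, 0.345 and 0.304, above all P635L Ctr libraries. WT Tnpo3 was also below WT Ctr on average, at 0.239 against 0.422, but was not called. Vrk1, a nuclear kinase, fell from 0.282 ± 0.155 to 0.0467 ± 0.0341 (SD, n = 4 each) and, in WT Tnpo3, to 0.085. Zmym3, a zinc finger protein of chromatin complexes, fell from 0.939 to 0.723 in a 522-base coding extension. In Ythdc1 and Vrk1 the long form appears in M21 only in transcripts marked for nonsense-mediated decay.

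Zfp13, a zinc finger protein, fell from 0.984 ± 0.0325 to 0.689 ± 0.17 (SD, n = 4 each) in a 21-base coding extension. Tmem234 fell from 0.679 ± 0.0652 to 0.385 ± 0.074 (SD, n = 4 each). Sema3b, a secreted guidance cue, fell from 0.95 to 0.735 in a 204-base 5' UTR extension, and its gene rose by 1.18 on the log2 scale (edgeR adjusted p = 2.32e-06). The unnamed transcript 1810014B01Rik fell from 0.98 to 0.817. Srebf1, a transcription factor of lipid synthesis, had all WT Ctr libraries at 1.0 and P635L Ctr at 0.949, 0.961, 0.868 and 0.598. Its P635L Tnpo3 mean of 0.842 was nearly the P635L Ctr mean of 0.844.

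**Figure D3:**
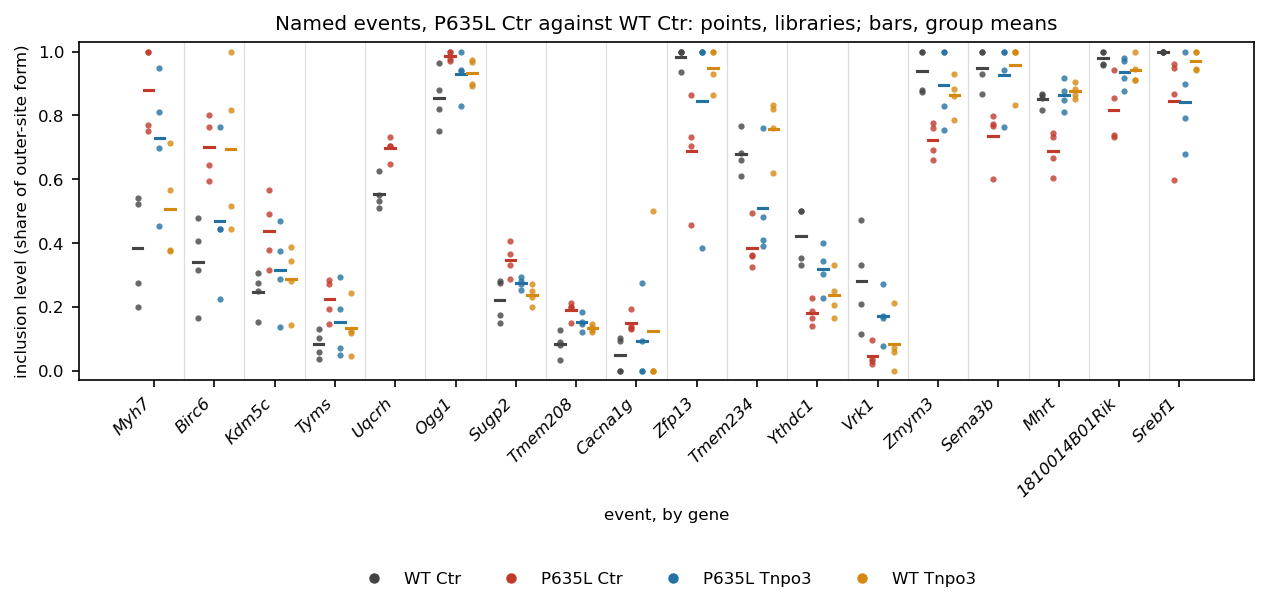
Inclusion levels (vertical axis, 0 to 1) of 18 events named for P635L Ctr against WT Ctr, with 1 point per library and a bar at each group mean, coloured by group. The 4 P635L Ctr points lie wholly above the WT Ctr points in the first 9 genes and wholly below them in the other 9, as the choice of events requires. Tnpo3 groups mostly lie between or overlap. Choosing events for a wide gap also favours smaller gaps in groups not used in the choice, so this position does not measure an effect of the virus.

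Several events outside the naming rule were chosen after their values were seen. Psmd10, the proteasome chaperone gankyrin, had levels of 0.958, 0.956, 0.934 and 0.876 in WT Ctr, 0.842, 0.732, 0.848 and 0.825 in P635L Ctr and 0.799, 0.854, 0.859 and 0.764 in P635L Tnpo3. Both P635L groups lay below WT Ctr without overlap, at 151 to 294 reads per library over the 4 groups. Slc29a1, the nucleoside transporter ENT1, fell from 0.35 to 0.237 in its 6-base extension in P635L Ctr, and stood at 0.364 in P635L Tnpo3.

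Small shifts in deeply read genes fell under the least difference of 0.1. There were 94 events with a deposited FDR under 0.05 and a difference below 0.1 in the table with P635L Ctr. Ociad1, a mitochondrial membrane protein, was at 0.017, 0.014, 0.011 and 0.012 in WT Ctr, 0.04, 0.04, 0.057 and 0.045 in P635L Ctr and 0.035, 0.038, 0.031 and 0.047 in P635L Tnpo3. Both P635L groups lay above WT Ctr, and the edgeR adjusted p for P635L Ctr was 0.083. Rpl13a, a ribosomal protein, moved from 0.00975 to 0.0203 in P635L Ctr at 7920 and 14100 reads per library, and was at 0.0108 in P635L Tnpo3. With no least difference, edgeR called 2 events. Gas5, a non-coding RNA that hosts small nucleolar RNAs, went from 0.0195 to 0.001 (adjusted p = 0.0103), and Ppib, cyclophilin B, from 0.991 to 1.0 (adjusted p = 0.028). Neither passed in the authors' deposited table, where the FDR was 0.826 for Gas5 and 1.0 for Ppib.

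The comparison of P635L Tnpo3 with WT Ctr differs in both genotype and virus. By the deposited FDR 47 of 1711 events (2.75%) were called, 21 higher (1.23%) and 26 lower (1.52%), and 13 of them (0.76%) had no overlap. Called or not, 44 events (2.57%) had no overlap. Over all 5 event types 2.11% were called. edgeR and limma called 0, with 114 events (6.66%) and 222 events at an unadjusted p under 0.05. Kat2a, the histone acetyltransferase GCN5, was at 0.278, 0.281, 0.38 and 0.243 in WT Ctr, 0.387, 0.281, 0.395 and 0.293 in P635L Ctr and 0.5, 0.801, 0.565 and 0.589 in P635L Tnpo3. All P635L Tnpo3 libraries lay above those of both control-virus groups. The difference from P635L Ctr was 0.275. WT Tnpo3 had a mean of 0.38 ± 0.167 (SD, n = 4).

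Rbm10, a splicing regulator encoded on the X chromosome, has a 3-base extension, the GTG shown above, which adds or removes 1 codon. Inclusion levels were 0.76, 0.781, 0.458 and 0.685 in WT Ctr, 0.682, 0.607, 0.773 and 0.57 in P635L Ctr and 0.432, 0.283, 0.446 and 0.308 in P635L Tnpo3. The last group lay below both control-virus groups, by -0.304 from WT Ctr and -0.291 from P635L Ctr. It was the only called event among 27 in the list of splicing factors, and none of that list was called in the other 2 tables. WT Tnpo3 spread from 0.357 to 0.709.

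Echdc2, a mitochondrial enoyl-CoA hydratase family member, rose in P635L Tnpo3 from 0.566 ± 0.14 to 0.747 ± 0.0244 (SD, n = 4 each) at 468 and 852 reads per library. Tars2, the mitochondrial threonyl-tRNA synthetase, was at 0.033, 0, 0.012 and 0.019 in WT Ctr and at 0.109, 0.158, 0.189 and 0.103 in P635L Tnpo3. P635L Ctr also lay above WT Ctr there, with a mean of 0.0795. Abhd14a rose from 0.0748 to 0.439, at 12.2 and 11.2 reads per library. Synj2, a phosphoinositide phosphatase, fell from 0.975 to 0.795 in an 11-base extension while P635L Ctr stood at 0.969. Micall1, an endosomal recycling protein, fell from 0.977 to 0.787. Phkg2, a catalytic subunit of phosphorylase kinase, fell from 0.903 to 0.662, and Rrp1b, a nucleolar protein, from 0.215 to 0.044. P635L Ctr means were 0.659 for Echdc2, 0.232 for Abhd14a, 0.942 for Micall1, 0.812 for Phkg2 and 0.0818 for Rrp1b. Of these, only Rrp1b was called in P635L Ctr as well, and Abhd14a had 8.75 reads there, under the read minimum.

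Tnpo3 virus in wild-type hearts gave the fewest calls. Its group was also the least deeply read of those set against WT Ctr. The median over events was 67 junction reads per library, beside 84.8 in P635L Tnpo3 and 108 in P635L Ctr. The part of depth in the number of calls was not tested. By the deposited FDR 23 of 1621 events (1.42%) were called, 13 higher (0.802%) and 10 lower (0.617%), and 5 (0.308%) had no overlap. Called or not, 18 events (1.11%) had no overlap. Over all 5 event types 0.941% were called. edgeR and limma called 0, with 64 events (3.95%) and 138 events at an unadjusted p under 0.05. Dedd2, a death effector domain protein, was at 0.341, 0.293, 0.306 and 0.486 in WT Ctr and 0.224, 0, 0 and 0.049 in WT Tnpo3. Cabp1, a calcium-binding protein, was at 0.446, 0.743, 0.537 and 0.376 in WT Ctr and 1.0, 0.914, 0.948 and 0.772 in WT Tnpo3, at 10.8 and 15.5 reads per library. Atg2a, a lipid transfer protein of autophagy, rose from 0.161 to 0.371 in its 6-base extension. Atg2a was also called higher in P635L Ctr, at 0.322, but stood at 0.17 in P635L Tnpo3. The transcript 2310020H05Rik rose from 0.557 to 0.859. It was also called higher in P635L Tnpo3, at 0.806, while P635L Ctr stood at 0.729 without a call. Ccdc186 rose from 0.729 to 0.983, but 1 WT Ctr library was at 0.186, and without it the difference was 0.072.

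**Figure D4:**
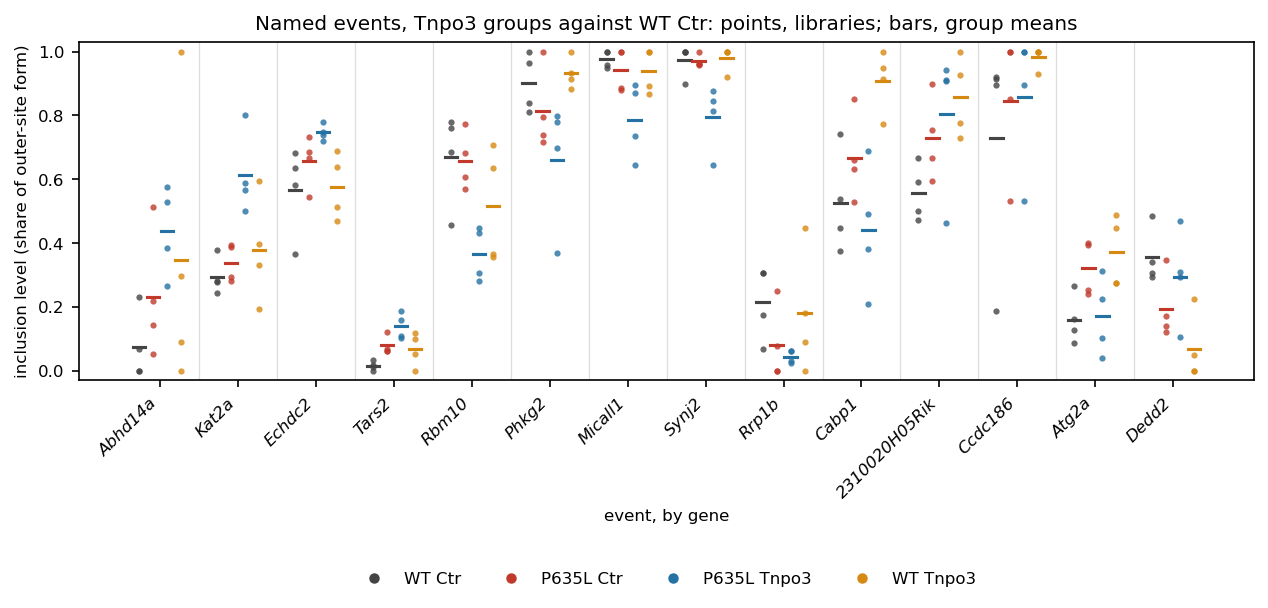
Inclusion levels (vertical axis, 0 to 1) of the 14 events named for P635L Tnpo3 (first 9 genes) and WT Tnpo3 (last 5) against WT Ctr, with 1 point per library and a bar at each group mean, coloured by group. In Kat2a, Rbm10 and Synj2 the P635L Tnpo3 points lie apart from both control-virus groups. The choice of events required that the group each was named for lie apart from WT Ctr.

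The effect of Tnpo3 virus within mutant hearts was tested on the junction counts of the 1706 events read in both P635L groups. edgeR called 0 of them and limma 0, with 82 (4.81%) and 151 at an unadjusted p under 0.05, and the smallest edgeR adjusted p was 0.224. The libraries of these groups did not overlap in 47 events (2.75%). Over all 5 event types edgeR called 9 of 29393 (0.0306%). In 3003 of these, 1 form had no reads in any P635L library, so they could not be called but still counted in the adjustment. The other comparisons had no such events. The interaction, which asks whether the virus acted differently in the 2 genotypes, was called by edgeR in 0 of 1481 events and by limma in 0, with 65 (4.39%) and 142 at an unadjusted p under 0.05. Over all 5 event types edgeR called the interaction in 5 of 25473 (0.0196%). The exact two-sided permutation test of inclusion levels between the P635L groups, run on 32 named events, gave no adjusted p below 0.183, and no p can go below 0.0286 before adjustment with 4 against 4. Most of these events were named for a difference between one of these P635L groups and WT Ctr, a choice that favours a difference between the P635L groups, so this is no independent test of single events.

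Among the fixed lists of heart genes few events passed the read minimum. The list of RBM20 targets had 9 events, in 7 of its 32 genes, with a median difference of 0.023 in P635L Ctr, beside 0 over all 1725. The sarcomere list had 10 events passing the read minimum in P635L Ctr against WT Ctr, and only Myh7 was called, which was also the only one called of 12 in P635L Tnpo3. The calcium handling list had 6 events in each table, with 0 called by the deposited FDR and 0 by edgeR. The extension length was a multiple of 3 in 9 of the 21 higher and 16 of the 34 lower events of P635L Ctr against WT Ctr. The share was 39% of all 1725. These counts include extensions outside coding sequence, so they are not counts of kept reading frames. Of the higher events all 21 matched M21, and in 10 both forms belong to protein-coding transcripts, while in 8 only the short form does. Of the 32 matched lower events, these counts were 14 and 9. Over all 1609 matched events that passed the read minimum in this table, they were 636 and 661. Over the 104 events called in at least 1 table the extension had a median length of 80 bases, and 44 (42.3%) were multiples of 3.

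The expression of genes that recognise 5' splice sites was tested as a fixed list. It holds 17 genes, among them the U1 proteins Snrnp70, Snrpa and Snrpc, the Luc7-like proteins and the regulators Tia1, Srsf1 and Hnrnpa1. In the edgeR test over 18662 genes, 0 of 17 changed in any of the 4 contrasts, while 14.2% of all genes changed in P635L Ctr against WT Ctr, 3.07% in P635L Tnpo3 against WT Ctr, 0.00536% in WT Tnpo3 against WT Ctr and 3.88% in P635L Tnpo3 against P635L Ctr. Srsf1, an SR protein that favours proximal sites, came nearest, with 70.6 ± 8.94 CPM in WT Ctr and 88.8 ± 7.01 in P635L Ctr (SD, n = 4 each). Its log2 fold change was 0.33 (SE 0.11, edgeR adjusted p = 0.0528). DESeq2 called 1 gene of the list in that contrast.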

How the data were processed

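RNA-seq libraries from 16 left ventricles were prepared with a stranded poly(A) kit, per the labels' protocols. The submitters' processing notes name STAR 2.7.9a, featureCounts 2.0.6, DESeq2 and GRCm39. The splicing tables carry rMATS columns, and its version is not given in the sources used here. Each deposited row lists inclusion and skipping junction counts per library in 4 positions, with p-values and FDR computed by the authors. The FDR equals a Benjamini-Hochberg adjustment over the events of this type. Positions are not tied to sample numbers, so a library is known only by its position. Deposited gene counts are raw featureCounts counts.

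From these, edgeR 4.0.16 (quasi-likelihood) tested inclusion against skipping counts with a term per library, and limma 3.58.1 served as an alternative. P-values were adjusted over all 5 event types. Gene counts were tested with edgeR and, as an alternative, DESeq2 1.42.0. Scripts were tested on simulated data. Differences are the second group minus WT Ctr. Labels name separate mice. Exons were matched to GENCODE M21 by gene, exon lengths and spacing, and bases were read from its transcripts.

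Named events were up to 10 of the largest rises and up to 10 of the largest falls without overlap in P635L Ctr. Up to 5 and 5 were named in each other table. Every called event in genes of the RBM20 target, sarcomere, calcium handling and splicing factor lists was named too. Rises without overlap numbered only 9 in P635L Ctr, 4 in P635L Tnpo3 and 4 in WT Tnpo3. WT Tnpo3 had 1 such fall. Some called events are not reported here. The members and lists were chosen with earlier results of these data known. In the gene counts, 6 of 24 same-numbered pairs of libraries from different groups correlated above 0.1 (range -0.26 to 0.55). Pairs with different numbers ranged from -0.33 to 0.25, so the highest same-numbered correlation lay above all of them. Whether replicate numbers mark a pairing or a shared batch was not tested.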

Additional observations from a re-analysis of the deposited data

Results flagged for a closer look

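Of 129 sets of 4 inclusion levels from the events named by rule, 13 had 1 library far from the other 3. The cutoff flags about 1 in 20 sets of normally distributed values, but inclusion levels are bounded and can tie. Where 3 libraries tie, any other value of the remaining library is flagged, so that rate does not apply here. In WT Ctr the library apart was at 0.935 for Zfp13, 0.899 for Synj2 and 0.186 for Ccdc186. In P635L Ctr it was at 0.195 for Cacna1g, 0.6 for Sema3b, 0.123 for Tars2 and 1.0 for Synj2. In P635L Tnpo3 it was at 0.386 for Zfp13 and 0.462 for 2310020H05Rik. In WT Tnpo3 it was at 0.502 for Cacna1g, 0.833 for Sema3b, 0.922 for Synj2 and 0.931 for Ccdc186.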

How the results depend on the processing

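Counts called by the deposited FDR are given in the order P635L Ctr, P635L Tnpo3 and WT Tnpo3, each against WT Ctr, with 55, 47 and 23 as reported. They were 32, 27 and 14 at an FDR under 0.01, 96, 88 and 41 with a least difference of 0.05, and 19, 20 and 11 with 0.2. They were 31, 28 and 13 at a mean of 20 reads, and 22, 13 and 5 when libraries could not overlap. At a mean of 5 reads WT Tnpo3 had 39. Leaving out each library in turn, with the FDR kept, gave 51 to 62, 45 to 52 and 20 to 26. Counts by edgeR were 0 under every alternative run except 2 in P635L Ctr with no least difference. Of 288 differences of named events with 1 library left out, 0 reversed and 8 fell below 0.1, in Ogg1 (0.099), Tmem208 (0.092), Cacna1g (0.085), Srebf1 (-0.074) and Ccdc186 (0.072), the lowest of each in parentheses. For the 5' splice site recognition genes DESeq2 called 1 in P635L Ctr, and leaving out a library gave 0 to 1, with 1 when P635L Tnpo3 replicate 2, WT Ctr replicate 3, WT Tnpo3 replicate 2 or WT Tnpo3 replicate 4 was left out. The fit with the replicate block called 0 in each of the 4 contrasts. No paired analysis was possible for the splicing events because their libraries carry no numbers. The causes were not tested. Depth limits shallow events most.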
